A study of Homo sapiens with 12 samples.

Results

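The genes described here encode the integrins, laminins, collagens and fibronectin that anchor a cell to its matrix, together with the adaptor proteins that tie integrins to the actin cytoskeleton. They were chosen by name and not by any measured value. The choice took the rows of the count table whose symbol had the form of an integrin subunit, a laminin chain or a collagen chain, or was FN1, ILK, PARVA, PARVB, LIMS1, LIMS2, FERMT1, FERMT2, VCL, TLN1, ACTN1 or ACTN4. It found 59 genes among the 16389 of the table. They were 12 integrin alpha subunits, 5 integrin beta subunits, 9 laminin chains, 18 collagen chains, fibronectin, 3 members of the ILK, PINCH and parvin complex beside ILK itself, 2 kindlins, and talin, vinculin and 2 alpha-actinins. The name pattern also took 4 genes that are no integrin subunits, namely ITGB1BP1, ITGB1BP2, ITGB3BP and the pseudogene ITGB1P1. Among the chains with no row in the table used here were COL4A1 and COL4A2, COL1A2, COL6A3, ITGB3 and the parvin gene PARVB.

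RNA was sequenced from HepG2 cells, an established human liver cancer line, in 4 groups of 3 libraries, and the study asked how high glucose and valproic acid (VPA) changed their gene expression. The LG group was kept in normoglycaemic medium (5.5 mM glucose) and the HG group in hyperglycaemic medium (20 mM glucose) for 48 h, both without VPA. The LGV and HGV groups were kept in the same media and then received VPA at 1 mM during another 12 h. The labels do not say whether the untreated cells were collected before or after those 12 h. VPA is an anticonvulsant drug that also inhibits histone deacetylases.

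Integrins are receptors made of 1 alpha and 1 beta subunit, and the alpha subunit largely sets which matrix protein is bound. Laminins, built from an alpha, a beta and a gamma chain, and the network-forming collagen IV are the main scaffolds of basement membranes, whereas fibrillar collagens make up the stiffer matrix. Inside the cell, talin and kindlins bind the tails of beta subunits and activate them, and vinculin, alpha-actinin and the complex of ILK, PINCH and parvin link them to actin. Hepatocytes rest on a sparse matrix without a typical basement membrane and secrete much of the fibronectin of plasma.

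Stretches of 250 bases before the RefSeq start of transcription (annotation of GRCh38.p14) are shown for 6 members whose transcripts are described further on. COL6A2, COL8A2, ITGA5, ITGA2B and VCL were all higher with VPA in both media, and COL4A5 was picked because it is read head to head with COL4A6. Each stretch is written 5′ to 3′ on the strand of its gene and had a single exact match in GRCh37. The GC box GGGCGG, or CCGCCC where it lies on the other strand, is in capitals.
COL6A2, chr21:47517776-47518025, plus strand: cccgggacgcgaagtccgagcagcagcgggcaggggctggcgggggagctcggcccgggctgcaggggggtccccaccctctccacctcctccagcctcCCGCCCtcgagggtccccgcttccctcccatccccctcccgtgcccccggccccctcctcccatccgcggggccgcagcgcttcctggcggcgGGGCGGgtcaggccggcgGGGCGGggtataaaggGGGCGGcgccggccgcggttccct
COL8A2, chr1:36590824-36591073, minus strand: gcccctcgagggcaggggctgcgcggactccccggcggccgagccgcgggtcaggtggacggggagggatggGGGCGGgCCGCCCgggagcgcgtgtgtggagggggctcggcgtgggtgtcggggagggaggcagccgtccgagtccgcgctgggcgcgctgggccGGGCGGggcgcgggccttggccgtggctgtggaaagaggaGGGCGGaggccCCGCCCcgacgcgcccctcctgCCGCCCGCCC
ITGA5, chr12:54813051-54813300, minus strand: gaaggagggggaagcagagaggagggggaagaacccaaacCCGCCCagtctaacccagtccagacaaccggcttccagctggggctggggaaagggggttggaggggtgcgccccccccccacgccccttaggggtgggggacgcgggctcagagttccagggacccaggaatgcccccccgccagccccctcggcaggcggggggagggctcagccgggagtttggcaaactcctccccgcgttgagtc
ITGA2B, chr17:42467018-42467267, minus strand: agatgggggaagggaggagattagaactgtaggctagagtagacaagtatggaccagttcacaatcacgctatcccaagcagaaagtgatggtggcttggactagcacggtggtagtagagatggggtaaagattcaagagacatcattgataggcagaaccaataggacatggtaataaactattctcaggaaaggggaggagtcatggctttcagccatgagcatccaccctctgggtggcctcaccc
VCL, chr10:75757624-75757873, plus strand: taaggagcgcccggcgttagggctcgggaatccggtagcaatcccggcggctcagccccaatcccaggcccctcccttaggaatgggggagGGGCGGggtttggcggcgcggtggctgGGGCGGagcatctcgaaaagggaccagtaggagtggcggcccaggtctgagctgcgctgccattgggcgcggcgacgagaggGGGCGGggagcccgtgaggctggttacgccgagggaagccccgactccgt
COL4A5, chrX:107682818-107683067, plus strand: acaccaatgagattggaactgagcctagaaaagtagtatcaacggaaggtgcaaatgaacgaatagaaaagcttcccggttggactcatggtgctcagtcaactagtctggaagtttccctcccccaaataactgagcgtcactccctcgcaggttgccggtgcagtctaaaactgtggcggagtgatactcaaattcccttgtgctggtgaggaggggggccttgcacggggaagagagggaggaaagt

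The COL8A2 stretch held 7 GC boxes, that of COL6A2 held 4, that of VCL 3 and that of ITGA5 1, whereas those of ITGA2B and COL4A5 held 0. COL6A2 had the TATA box TATAAA, ITGA2B 1 CCAAT box, and VCL and COL4A5 2 CCAAT boxes each. The VCL stretch lies inside the interval that GENCODE gives the gene, because GENCODE starts VCL further upstream. COL4A5 and COL4A6 lie on opposite strands of the X chromosome with 379 bases between their RefSeq starts, so their upstream stretches share 121 bases, which are the first 121 of the stretch printed for COL4A5. COL6A1 and COL6A2, by contrast, lie on the same strand of chromosome 21 with 93061 bases between them. A RefSeq window was found for 42 of the 59 members. The members without one in the table were LAMC3, COL6A1, ITGB1P1, ITGB2, COL1A1, ITGA7, COL2A1, COL5A2, ITGA9, COL14A1, COL9A3, PARVA, ITGAL, ITGB4, LAMA1, FERMT1 and ITGA3. Searching both strands and counting overlapping matches, a GC box was present in 26 of the 42 (61.9%), against 66.4% of the windows of 10327 genes of the count table and 42.6% of all 35116 windows. CCAAT was present in 9 (21.4%, against 34.9% of the count table's genes), TATAAA in 4 (9.52%, against 5.36%) and the E-box CACGTG in 2 (4.76%, against 8.78%). Of the windows of members higher with VPA in both media, 6 of 9 held a GC box, and of those of members lower in both media 4 of 4 did. These matches are letters in a window and were not tested as binding sites.

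Each library had between 29798442 and 45572694 counted reads. Levels are given as CPM, a read count relative to the library's total after scaling with TMM factors, in the order of replicates 1, 2 and 3, and 3 reads, the floor used for detection, stood for 0.0713 to 0.112 CPM (counting error only). The hepatocyte markers checked the label of the line, since all 10 had a row and together took 46300 to 69900 CPM, with the lowest range in LGV (46300 to 48100 CPM) and 55600 CPM or more in each other library. Of 9 mesenchymal or stellate markers 4 had a row, with 43.8 to 78.3 CPM in sum, mostly from PDGFRB, while DCN, LUM, THY1, DES and POSTN had none. Of the endothelial and leukocyte markers, PECAM1, KDR, TEK, PTPRC, CD68 and CD3E had no row, and the rows present summed to at most 4.85 CPM for the endothelial list and 4.73 CPM for the leukocyte list in any library. In bulk RNA, fewer cells of a type and less RNA per cell cannot be told apart. Nothing in the labels says that replicates were separate cultures, so the adjusted p-values (FDR, from edgeR's quasi-likelihood F test over all genes) measure only the spread between these libraries, which may be technical.

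Fibronectin dominated the matrix transcripts of these cells. FN1 (chr2:216225163-216300796, minus strand) took 1.04% to 1.79% of all counted reads and 74.5% to 81.8% of the reads of the 59 genes, which together took 1.39% to 2.19%. Per kilobase of exon it had a mean of 873 CPM over the 12 libraries. The next members on this scale were ACTN4 with 48.8, LAMB2 with 43.0, COL9A3 with 32.6, LAMC1 with 32.3 and TLN1 with 27.5 CPM per kilobase.

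Levels differed widely within each family. ITGB5 (24.8 CPM per kilobase), the partner of alpha v in a vitronectin receptor, and ITGB1 (22.7), the partner of most alpha subunits, were the highest beta subunits. Their order rests on the exon lengths used, 6515 bases for ITGB5 and 14561 for ITGB1. Not divided by length, ITGB1 was higher, with a mean of 330 CPM beside 162 for ITGB5. ITGA6 (22.4), of a laminin receptor, and ITGA2 (20.5), of a collagen receptor, were the highest alpha subunits. Among collagens COL9A3 (32.6), COL18A1 (25.2) and COL27A1 (18.7) were the highest, while COL1A1 had 0.101 CPM per kilobase. ILK, at 0.155 CPM per kilobase, was far below its partners LIMS1 (4.30) and PARVA (1.55), but 2375 of its 3485 exon bases overlap exons of TAF10 on the other strand, and since it is not stated whether reads were counted by strand, its level is uncertain. ITGB1P1, a processed pseudogene of ITGB1, shares sequence with it and its level is uncertain too. The plot of levels per length shows the whole family.

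**Figure D1:**
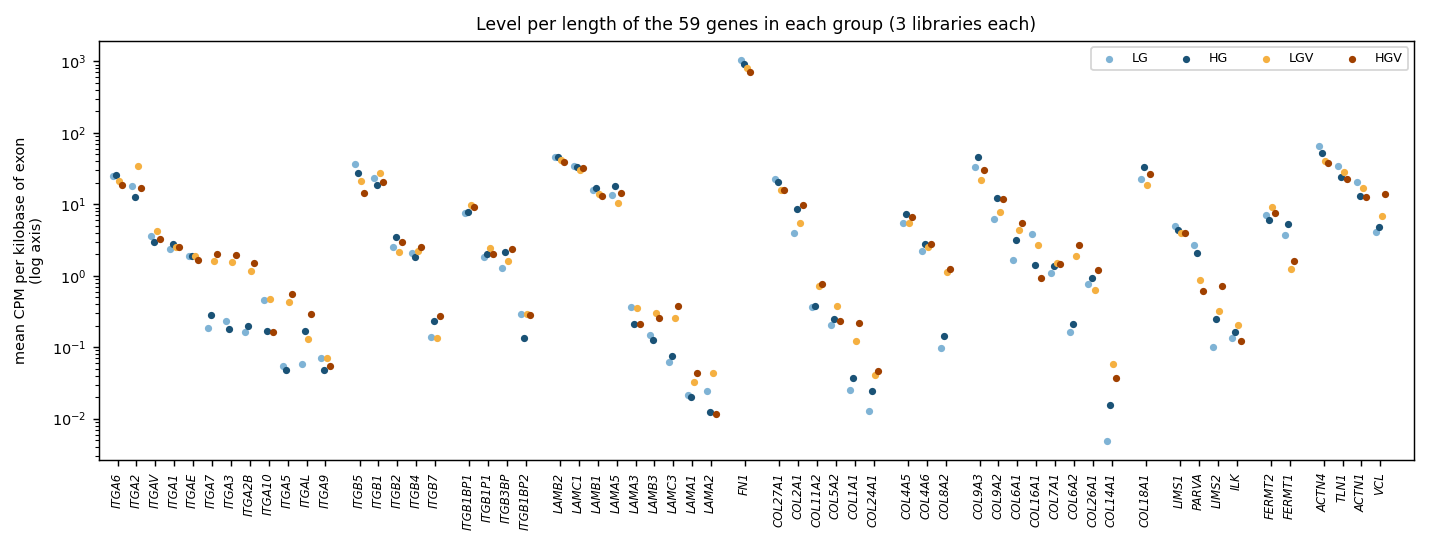
Mean CPM per kilobase of exon (log axis) of the 59 genes in each of the 4 groups, 3 libraries a group, arranged by family with 1 point for each group. FN1 stands alone near the top with a mean of 873 over all libraries, and genes such as ITGA3, ITGA5, ITGA7, ITGA2B, COL6A2 and COL8A2 show VPA-treated points well above both untreated ones.

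VPA raised more members than it lowered, in both media, and the genes that rose most were integrin alpha subunits and collagen chains that untreated cells held at very low levels. Rises from low levels were common among all genes too, as given further on. In LG medium 58 members were tested, and 20 were higher (34.5%) and 8 lower (13.8%) in LGV, whereas 21.7% of all 15944 genes tested were higher and 19.9% lower. The members' median log2 fold change was 0.21, beside -0.01 over all genes. In HG medium 17 of 58 were higher (29.3%) and 10 lower (17.2%) in HGV, against 25.8% and 20.2% of all 16188 genes, with a median of 0.06 beside 0.02. The share of members called higher was above the background in LG medium and close to it in HG medium. The groups did not overlap in 31 of 58 members in LG medium (50.5% of all genes) and in 34 of 58 in HG medium (54.6%).

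The 2 VPA comparisons share no library. Of the 57 members tested in both media, 26.3% were higher and 12.3% lower in both, against 17.5% and 14.8% of the 15743 genes tested in both. Higher in both media were 15 members, namely ITGA2B, ITGA3, ITGA5, ITGA7, ITGAL, LAMB3, LAMC3, COL1A1, COL6A1, COL6A2, COL8A2, COL11A2, LIMS2, FERMT2 and VCL. Lower in both were 7, namely ITGB5, COL9A3, COL16A1, COL27A1, PARVA, FERMT1 and ACTN4. Another 25 passed in neither medium. Without LGV replicate 3, 13 of 57 members tested were higher in LG medium. That fit has fewer libraries and so less power for every gene, and its count over all genes is not given. Without TMM factors, using the library totals alone, which moved the median of all genes from -0.006 to 0.156 in LG medium and from 0.025 to 0.146 in HG medium, 23 members were higher and 5 lower in LGV, and 22 higher and 6 lower in HGV.

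Members were also sorted by their mean in the untreated group of the other medium, which took no part in the comparison. Of those at 100 CPM or more, 0 of 14 were higher and 5 lower in LGV, and 0 of 15 were higher and 7 lower in HGV. ITGA2, which rose in LGV, lay just under that level with a mean of 99.4 CPM in HG, and had a mean of 141 CPM in LG. Among all genes at that level 5.15% were higher and 40.2% lower in LGV, and 11.1% were higher and 37.5% lower in HGV. Among all genes under 5 CPM, 31.0% were higher and 6.25% lower in LGV, and 35.5% and 8.18% in HGV. Among members under 5 CPM, 14 of 24 were higher (58.3%) and 0 lower in LGV, and 13 of 23 were higher (56.5%) and 0 lower in HGV. Rises from low levels were therefore common among all genes and more frequent among members. That difference was not tested. A scarce gene could pass the filter on reads through its VPA libraries alone, which bears on the shares of all genes too. COL14A1 and COL1A1 did so in LG medium, with means of 2 and 7.33 reads in LG, and both are among the members counted as higher in LGV. COL24A1 did so in HG medium.

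**Figure D2:**
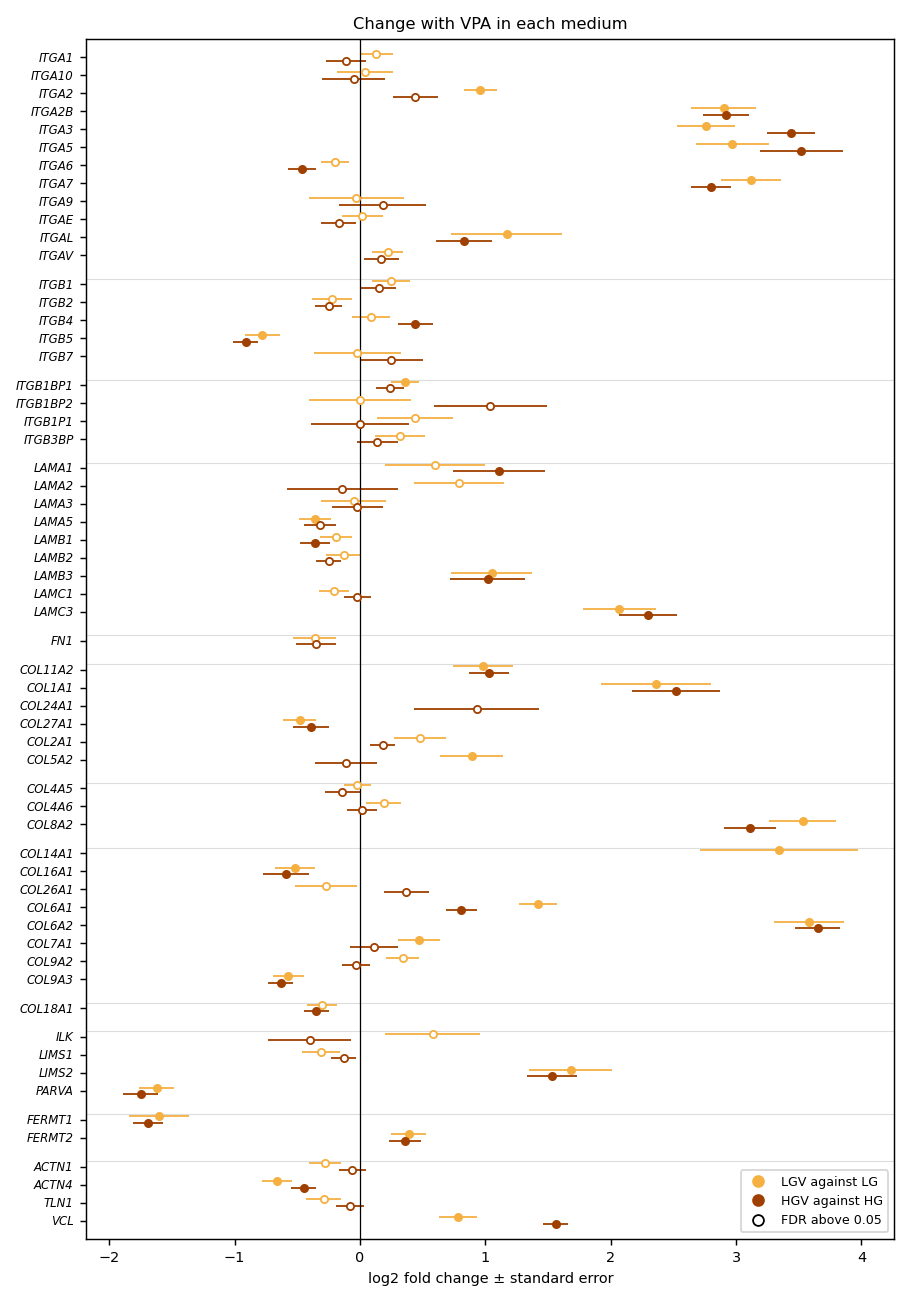
Log2 fold change with VPA of each member, with its standard error, in LG medium (LGV against LG) and HG medium (HGV against HG), 3 libraries against 3, with filled points at an FDR of 0.05 or less. Members fall into a block near 3 (ITGA2B, ITGA3, ITGA5, ITGA7, COL6A2 and COL8A2, from 2.76 to 3.65, with COL14A1 at 3.34 in LG medium), a block below 0 led by PARVA and FERMT1, and a majority close to 0.

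Among integrin alpha subunits, 6 of 12 rose with VPA in LG medium and 5 of 12 in HG medium, and 4 of them rose by a log2 fold change of 2.76 or more in both. ITGA3 (chr17:48133332-48167845, plus strand), of a laminin receptor, had 3.18, 1.75 and 1.89 CPM in LG, 1.33, 2.21 and 1.65 in HG, 16.6, 13.7 and 14.9 in LGV and 18.7, 21 and 17 in HGV. The untreated libraries all stayed below 4 CPM, and each VPA library stood above all of them. The log2 fold change was 2.76 (SE 0.23, FDR 3.78e-07) in LG medium and 3.44 (SE 0.19, FDR 5.18e-08) in HG medium. ITGA7 (chr12:56078352-56110188, minus strand), a laminin receptor subunit best known from muscle, had 2.24, 1.07 and 1.81 CPM in LG, 2.73, 2.66 and 2.38 in HG, 14.8, 12.9 and 15.8 in LGV and 16.6, 16.6 and 21 in HGV. Its groups were apart in the same way, with fold changes of 8.68 and 6.97. ITGA5 (chr12:54789045-54813050, minus strand), which with ITGB1 forms the classical fibronectin receptor, had 0.486, 0.399 and 0.332 CPM in LG, 0.222, 0.508 and 0.336 in HG, 2.52, 3.28 and 3.6 in LGV and 5.15, 4.49 and 2.73 in HGV. No untreated library reached 1 CPM, and no VPA library was below 2.52. The rise was 7.84-fold (log2 SE 0.29) and 11.5-fold (log2 SE 0.33). ITGA2B (chr17:42449548-42467017, minus strand), the alpha subunit of the fibrinogen receptor of platelets, had 1.23, 0.699 and 0.842 CPM in LG, 1.14, 1.14 and 1.09 in HG, 8.1, 6.11 and 6.0 in LGV and 7.48, 9.15 and 8.88 in HGV. It rose 7.47-fold and 7.56-fold, with FDRs of 8.69e-07 and 1.03e-07, and its usual partner ITGB3 had no row. These 4 calls held whichever library was left out and under every scaling, filter and test tried.

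The other alpha subunits moved less. ITGAL, the alpha subunit of a leukocyte integrin, had 0.449, 0.299 and 0.97 CPM in LG, 1.78, 1.56 and 1.57 in HG, 1.98, 0.844 and 1.07 in LGV and 2.79, 3.59 and 2.32 in HGV, and LG replicate 3 overlapped the LGV libraries. Its log2 fold change was 1.17 (SE 0.44) in LG medium, a call lost without LG replicate 1 (FDR 0.164), LG replicate 2 (0.134), LGV replicate 1 (0.207) or LGV replicate 3 (0.0582), and 0.83 (SE 0.22) in HG medium. ITGA2, of a collagen receptor, had 141, 159 and 123 CPM in LG, 110, 95.9 and 92 in HG, 242, 266 and 312 in LGV and 167, 92.6 and 145 in HGV. All LGV libraries were above all LG libraries, a rise of 0.96 on the log2 scale (SE 0.13, FDR 4.84e-05), whereas HGV replicate 2 lay within the range of HG, where the change of 0.44 (SE 0.18, FDR 0.0585) did not pass. It did pass without HGV replicate 2 (FDR 0.000209) and under 6 other alternatives, which included library sizes alone, upper quartile factors, the likelihood ratio test and DESeq2 (0.0469 or less). ITGA6 fell by 0.46 (SE 0.11, FDR 0.00507) in HG medium, beside a log2 fold change of -0.20 in LG medium that did not pass. With TMM factors and all libraries of the comparison, ITGA1, ITGA9, ITGA10, ITGAE and ITGAV passed in neither medium. In LG medium ITGAV passed with library sizes alone (0.38), with upper quartile factors (0.30) and without LG replicate 2. In HG medium it passed without HGV replicate 2 (FDR 0.0499).

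Of the 5 beta subunits, 0 were higher and 1 lower in LG medium, and 1 was higher and 1 lower in HG medium. ITGB1 had 321, 417 and 292 CPM in LG, 314, 241 and 261 in HG, 358, 408 and 447 in LGV and 338, 249 and 318 in HGV, and its groups overlapped in both media, with log2 fold changes of 0.25 and 0.15. ITGB5 (chr3:124480795-124620265, minus strand) had 248, 263 and 198 CPM in LG, 164, 188 and 184 in HG, 118, 134 and 156 in LGV and 97.3, 97.9 and 89.8 in HGV. All VPA libraries were below all libraries of the same medium without VPA, a fall of 0.78 (SE 0.14, FDR 4.14e-04) in LG medium and of 0.91 (SE 0.10, FDR 1.25e-05) in HG medium. ITGB4, the partner of ITGA6 in hemidesmosomes, rose by 0.44 in HG medium, a call lost without HG replicate 1 (FDR 0.0933), HG replicate 3 (0.101) or HGV replicate 2 (0.0503). ITGB2 and ITGB7, beta subunits of leukocyte integrins, passed in neither medium. Of the genes named after beta subunits, ITGB1BP1, a cytoplasmic inhibitor of integrin activation, rose by 0.36 in LG medium, a call lost without LG replicate 1 (FDR 0.055) or LGV replicate 3 (0.0518), and 2209 of its exon bases overlap those of ASAP2 on the other strand. ITGB1BP2, ITGB1P1 and ITGB3BP passed in neither medium.

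**Figure D3:**
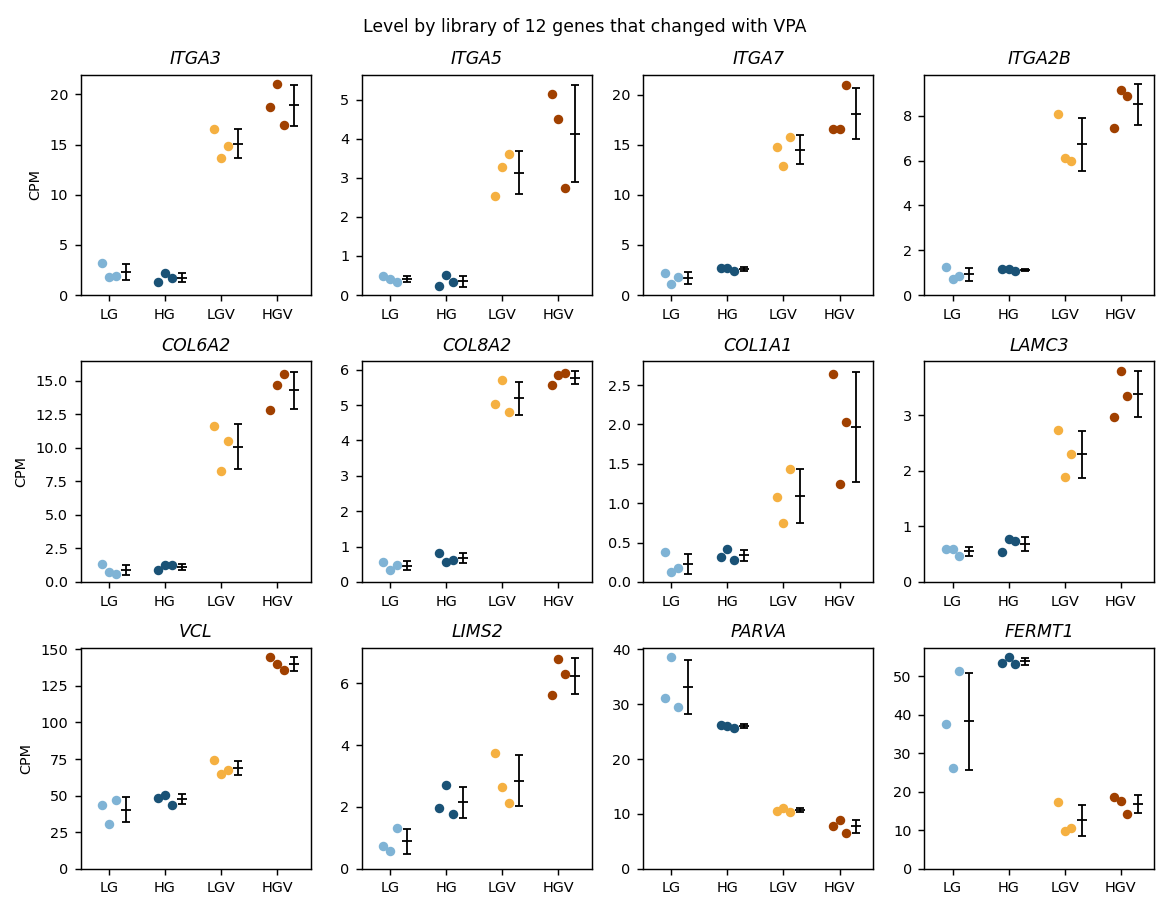
CPM of 12 genes in each of the 12 libraries (points, by group), with the mean and SD of 3 libraries beside them. In 10 of the genes the VPA libraries lie above the untreated ones of the same medium, on a scale that differs between panels, and in PARVA and FERMT1 they lie below.

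Collagen chains also rose with VPA, led by those of the beaded filaments of collagen VI and the network of collagen VIII. COL6A2 (chr21:47518026-47552762, plus strand), the alpha 2 chain of collagen VI, had 1.31, 0.774 and 0.562 CPM in LG, 0.888, 1.29 and 1.23 in HG, 11.6, 8.31 and 10.5 in LGV and 12.8, 14.7 and 15.5 in HGV. Every VPA library was several times higher than every untreated one, with log2 fold changes of 3.58 (SE 0.28, FDR 2.46e-07) and 3.65 (SE 0.18, FDR 3.32e-08). COL6A1 (chr21:47401684-47424964, plus strand), its partner chain, had 9.35, 9.53 and 8.53 CPM in LG, 17.7, 17 and 17.2 in HG, 27.1, 21.7 and 24.2 in LGV and 28.6, 27.5 and 35.2 in HGV. It too rose in both media, but by 1.42 (SE 0.15) and 0.81 (SE 0.12) on the log2 scale. COL8A2 (chr1:36560840-36590823, minus strand), a chain of the collagen VIII network of the corneal and vascular subendothelium, had 0.561, 0.324 and 0.485 CPM in LG, 0.824, 0.568 and 0.616 in HG, 5.04, 5.72 and 4.8 in LGV and 5.58, 5.85 and 5.91 in HGV. Its untreated libraries were all under 1 CPM and its VPA libraries all between 4.80 and 5.91, a rise of 11.6-fold in LG medium and of 8.62-fold in HG medium.

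Among the fibrillar chains, COL1A1 and COL11A2 rose and COL27A1 fell in both media. COL1A1 (chr17:48261462-48278993, minus strand), the main chain of collagen I, had between 5 and 14 reads in each untreated library and between 23 and 86 in each VPA library, or 0.374, 0.125 and 0.179 CPM in LG, 0.317, 0.419 and 0.28 in HG, 1.08, 0.747 and 1.44 in LGV and 2.64, 1.24 and 2.03 in HGV. The groups did not overlap, and the rise was 5.12-fold (log2 SE 0.44, FDR 5.53e-04) and 5.72-fold (log2 SE 0.35, FDR 8.96e-05), while COL1A2 had no row. In LG medium COL1A1 passed the filter on reads through its LGV libraries alone, with a mean of 7.33 reads in LG. Its fold and FDR there are therefore descriptive only. COL11A2, of the collagen XI of cartilage, rose by 0.98 (SE 0.24) and 1.03 (SE 0.16). COL5A2, of collagen V, had 1.31, 1.70 and 1.53 CPM in LG and 2.16, 2.92 and 3.34 in LGV, a log2 fold change of 0.89 that was lost without LG replicate 1 (FDR 0.053) or LGV replicate 3 (0.0713), beside -0.11 in HG medium. COL27A1 fell by 0.48 and by 0.39, and the first call was lost without LGV replicate 2 (FDR 0.0532), while the second was lost without any 1 of HG replicates 1 to 3 and HGV replicates 1 and 2 (0.0668 to 0.0857). COL2A1 passed in neither medium. COL24A1, with a mean under 10 reads in the LG and LGV libraries, was tested in HG medium only and did not pass.

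Of the remaining collagens, COL9A3 and COL16A1 were lower in both media. COL9A3 (chr20:61447596-61472511, plus strand), of the collagen IX that decorates cartilage fibrils, had 161, 149 and 168 CPM in LG, 207, 227 and 231 in HG, 93.1, 111 and 115 in LGV and 152, 132 and 147 in HGV. Its VPA libraries were below the untreated ones of the same medium, a fall of 0.57 (SE 0.12, FDR 0.0015) and of 0.63 (SE 0.10, FDR 2.91e-04), whereas COL9A2 passed in neither medium. In LG medium COL9A2 had a log2 fold change of 0.34 without overlap (FDR 0.0558), and it passed as higher under 6 alternatives, which included library sizes alone, upper quartile factors and leaving out LG replicate 3 (FDR 0.0198 to 0.0438). COL16A1 fell by 0.52 in LG medium, a call lost without LG replicate 1 (FDR 0.115), LGV replicate 1 (0.0609) or LGV replicate 3 (0.077), and by 0.59 in HG medium, lost without HGV replicate 1 (0.0553). With library sizes alone neither COL16A1 nor COL27A1 passed in either medium. COL18A1, whose C-terminal part is endostatin, fell by 0.35 in HG medium, a call lost without HG replicate 2 (FDR 0.0522) or HG replicate 3 (0.0603). COL14A1 had 0, 5 and 1 reads in LG and 20, 12 and 29 in LGV, and its fitted log2 fold change of 3.34 (SE 0.63, FDR 6.85e-04) therefore rests on few reads. It passed the filter on reads through its LGV libraries alone, so these values are descriptive only. It was not tested in HG medium, where it had 2, 8 and 6 reads without and 14, 12 and 14 with VPA. COL7A1, of anchoring fibrils, had a log2 fold change of 0.47 in LG medium that was lost without LG replicate 1 (FDR 0.0776), LG replicate 3 (0.104) or LGV replicate 3 (0.179). COL4A5, COL4A6 and COL26A1 passed in neither medium.

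The laminin chains that HepG2 cells hold at high levels changed little with VPA, and those that changed most were scarce. LAMC3 (chr9:133884561-133969860, plus strand), the gamma 3 chain, had 0.598, 0.599 and 0.46 CPM in LG, 0.539, 0.778 and 0.728 in HG, 2.73, 1.88 and 2.3 in LGV and 2.97, 3.8 and 3.35 in HGV. No untreated library reached the lowest VPA library, and the rise was 4.21-fold (log2 SE 0.29, FDR 5.05e-05) and 4.93-fold (log2 SE 0.23, FDR 5.69e-06). LAMB3, a chain of the laminin of epidermal anchoring, rose by 1.05 (SE 0.32) and 1.02 (SE 0.30) from under 1 CPM, and the calls were lost without LG replicate 3 (FDR 0.057) or LGV replicate 3 (0.0615) in LG medium and without HG replicate 1 (0.0579) in HG medium. The chains of laminin-511, LAMA5, LAMB1 and LAMC1, had LG means of 191, 293 and 292 CPM. LAMA5 fell by 0.36 in LG medium, although the call was lost without any 1 library other than LG replicate 2 (FDR 0.0614 to 0.125) and with library sizes alone. LAMB1 fell by 0.36 in HG medium, lost without HG replicate 1 (0.0574), HG replicate 2 (0.0674), HGV replicate 2 (0.0548) or HGV replicate 3 (0.0527). LAMC1 and LAMB2 passed in neither medium, with log2 fold changes between -0.25 and -0.02. LAMA1 had a log2 fold change of 1.11 in HG medium from means under 1 CPM, lost without HG replicate 2 (0.097), HG replicate 3 (0.0594) or HGV replicate 1 (0.105), and LAMA2 and LAMA3 passed in neither.

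FN1 had 20000, 19500 and 14800 CPM in LG, 16300, 16200 and 14700 in HG, 12300, 14900 and 14800 in LGV and 15000, 9920 and 12100 in HGV. LGV replicate 2 was above LG replicate 3, and HGV replicate 1 lay within the HG range. Its log2 fold changes of -0.36 (SE 0.17) and -0.35 (SE 0.16) did not pass with the quasi-likelihood test, while the likelihood ratio test and DESeq2 put both at an FDR under 0.05 (0.0196 to 0.0448).

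The adaptors inside the cell split between members of the same family. PARVA (chr11:12399110-12556903, plus strand), the parvin that links ILK to actin, had 31.1, 38.6 and 29.5 CPM in LG, 26.2, 26.1 and 25.6 in HG, 10.6, 11.1 and 10.3 in LGV and 7.73, 8.94 and 6.53 in HGV. All VPA libraries were below all untreated ones, by 1.62 on the log2 scale (SE 0.14, FDR 8.36e-07) in LG medium and 1.75 (SE 0.14, FDR 7.19e-07) in HG medium. FERMT1 (chr20:6055492-6103861, minus strand), the kindlin of epithelia, had 37.5, 26.1 and 51.3 CPM in LG, 53.4, 54.9 and 53.1 in HG, 17.2, 9.78 and 10.7 in LGV and 18.5, 17.6 and 14.1 in HGV. The untreated LG libraries were widely spread, and yet none came down to an LGV library, the fall being 3.03-fold and 3.22-fold. FERMT2, the kindlin of most tissues, rose by 0.39 (SE 0.14) and 0.36 (SE 0.13) with overlapping libraries, calls that were lost without LG replicate 1 (FDR 0.167), LG replicate 3 (0.0575), LGV replicate 2 (0.132) or LGV replicate 3 (0.145) in LG medium and without HG replicate 2 (0.145), HG replicate 3 (0.0949), HGV replicate 1 (0.0875) or HGV replicate 3 (0.146) in HG medium. LIMS2 (chr2:128395956-128439360, minus strand), the scarcer PINCH protein, had 0.748, 0.574 and 1.33 CPM in LG, 1.97, 2.72 and 1.76 in HG, 3.75, 2.66 and 2.13 in LGV and 5.61, 6.78 and 6.29 in HGV. It rose by 1.68 (SE 0.33, FDR 9.87e-04) and 1.53 (SE 0.20, FDR 4.16e-05), whereas LIMS1 passed in neither medium. ILK passed in neither medium, at 0.357 to 0.877 CPM.

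VCL rose and ACTN4 fell in both media. VCL (chr10:75754951-75881121, plus strand), which reinforces adhesions under load, had 43.9, 30.9 and 46.7 CPM in LG, 48.4, 50.4 and 43.8 in HG, 74.4, 64.6 and 67.7 in LGV and 145, 140 and 136 in HGV. The 3 HGV libraries stood far above the other 9, and LGV above both untreated groups, with log2 fold changes of 0.78 (SE 0.15, FDR 7.27e-04) and 1.56 (SE 0.10, FDR 1.61e-07). VCL exons share 1109 bases with AP3M1 on the other strand. ACTN4, a non-muscle alpha-actinin, had 430, 364 and 389 CPM in LG, 293, 345 and 320 in HG, 222, 250 and 271 in LGV and 225, 246 and 231 in HGV, and its VPA libraries were below the untreated ones of the same medium, a fall of 0.66 (SE 0.12) and 0.45 (SE 0.10). ACTN1 and TLN1 passed in neither medium, with log2 fold changes from -0.29 to -0.06.

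Whether VPA acted differently in the 2 media was tested as an interaction over all 12 libraries. With edgeR's quasi-likelihood test 0 of 59 members passed, while among all 16389 genes 4 were higher (0.0244%) and 3 lower (0.0183%). At an unadjusted level of 0.05, 7 members were counted (11.9%), against 11.3% of all genes. The smallest value was that of VCL, whose rise was 0.80 larger on the log2 scale in HG medium (SE 0.19, FDR 0.0894). The likelihood ratio test (FDR 0.0134) and DESeq2 (0.0262) each called VCL and no other member, and so did the quasi-likelihood test without LG replicate 2. COL6A1 followed with a difference of -0.60 (SE 0.19, FDR 0.208) and COL5A2 with -0.99 (SE 0.36, FDR 0.276). Members called in 1 medium and not in the other are therefore not shown to differ between media.

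High glucose by itself raised the collagen genes COL2A1, COL9A2, COL9A3, COL18A1 and COL6A1 and lowered the FACIT collagen gene COL16A1 and the integrin gene ITGA10. In HG against LG, 56 members were tested, and 12 were higher (21.4%, against 12.0% of all 15452 genes) and 7 lower (12.5%, against 12.7%), with a median log2 fold change of 0.06 beside 0.01. Among VPA-treated cells, HGV against LGV, 14 of 59 were higher (23.7%, against 21.2% of all 16208 genes) and 11 lower (18.6%, against 19.5%), with a median of -0.01 beside 0.01. The groups did not overlap in 27 of 56 members (41.2% of all genes) and in 30 of 59 (51.4%). These 2 comparisons share no library with each other, but HG against LG shares its LG libraries with LGV against LG and its HG libraries with HGV against HG. Of the 56 members tested in both, 16.1% were higher and 10.7% lower in both, against 8.85% and 9.9% of 15271 genes. Higher with glucose both without and with VPA were 9 members, namely COL2A1, COL9A2, COL9A3, COL18A1, ITGAL, ITGB2, ITGB3BP, LAMA5 and LIMS2. Lower in both were 6, namely ITGA2, ITGA10, ITGB5, LAMA3, COL16A1 and ACTN1.

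Counts of lower members fell when some single libraries were left out. A fit with fewer libraries has less power for every gene. The matching counts over all genes are not given, so the drop is not shown to be particular to members. In HG 3 members were lower without LG replicate 1 and 4 without HG replicate 1, HG replicate 3 or LG replicate 2. In HGV against LGV 7 were lower without LGV replicate 2 and 6 without LGV replicate 3. With library sizes alone the split was 13 higher and 5 lower without VPA and 14 higher and 7 lower with VPA, and with upper quartile factors 14 and 5 and 19 and 9, while the median of all genes was 0.102 and 0.101 with upper quartile factors.

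**Figure D4:**
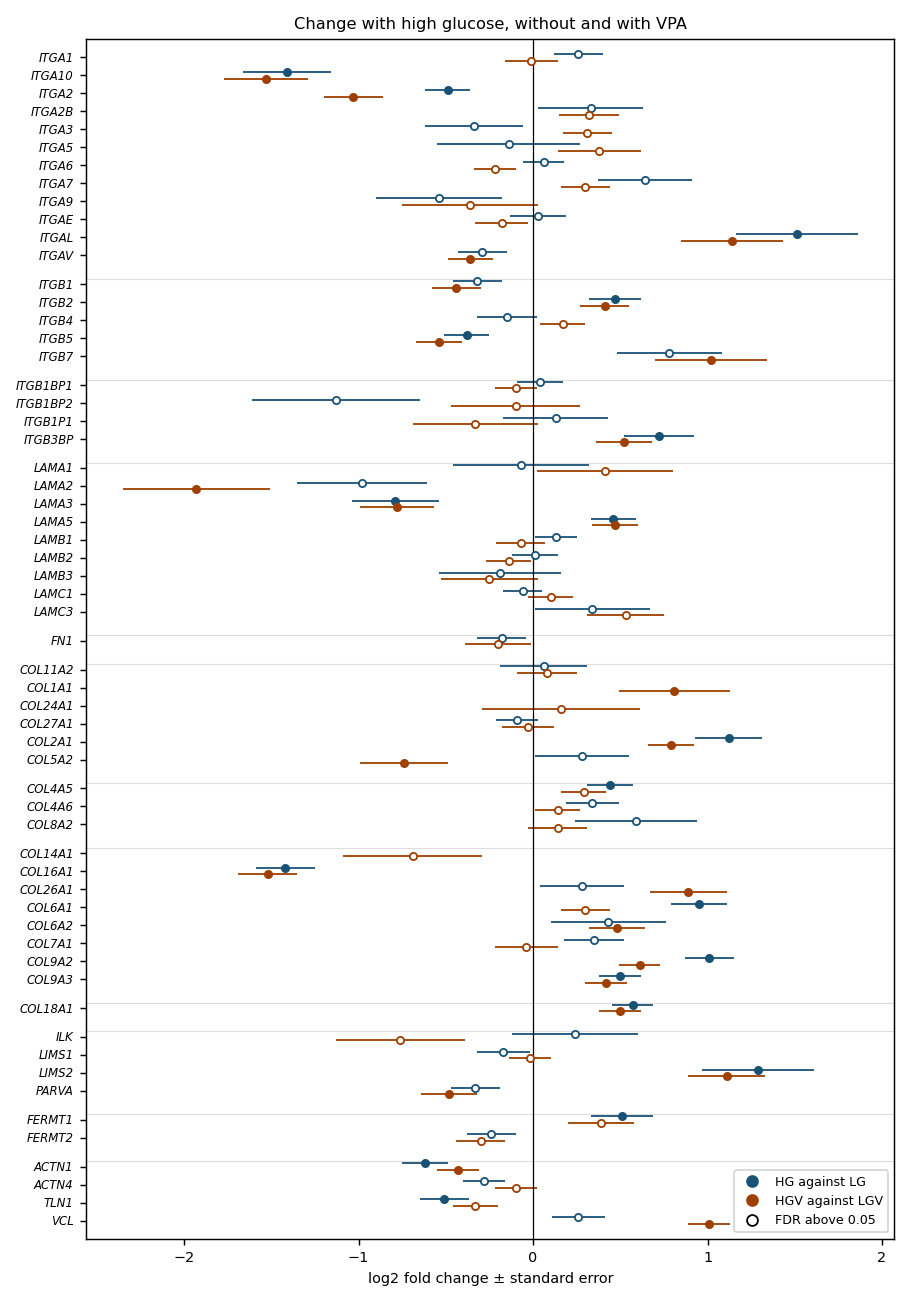
Log2 fold change with high glucose of each member, with its standard error, in untreated cells (HG against LG) and in VPA-treated cells (HGV against LGV), 3 libraries against 3, with filled points at an FDR of 0.05 or less. COL16A1 and ITGA10 lie between -1.53 and -1.41 in both comparisons, COL2A1, LIMS2 and ITGAL between 0.79 and 1.51, and VCL is filled only with VPA (1.01).

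Of the 6 collagens that rose in HG against LG, COL2A1, COL9A2 and COL9A3 build cartilage fibrils. COL2A1 (chr12:48366750-48398337, minus strand), the main fibrillar collagen of cartilage, had 25.8, 17.6 and 36.6 CPM in LG, 57.5, 57.1 and 57 in HG, 34.5, 32.6 and 43.7 in LGV and 66.8, 58.3 and 69.3 in HGV. Each HG library was above each LG library, and the same held between HGV and LGV, with rises of 2.18-fold (log2 SE 0.19, FDR 3.34e-04) and 1.73-fold (log2 SE 0.13, FDR 1.70e-04). COL9A2 (chr1:40766161-40783485, minus strand) had 27.2, 21.9 and 29 CPM in LG, 49.5, 54 and 50.7 in HG, 32.4, 32.6 and 32.9 in LGV and 50.7, 45.7 and 54.7 in HGV. The LG and LGV libraries lay between 21.9 and 32.9 CPM and those with high glucose between 45.7 and 54.7, rises of 1.01 (SE 0.14) and 0.61 (SE 0.12) on the log2 scale. COL9A3 rose by 0.50 (SE 0.12, FDR 0.00498) and 0.42 (SE 0.12, FDR 0.0115). COL18A1 (chr21:46825080-46933634, plus strand) rose by 0.57 (SE 0.12) and 0.50 (SE 0.12), although 1563 of its exon bases overlap SLC19A1 on the other strand. COL6A1 rose by 0.95 (SE 0.16, FDR 2.81e-04) in untreated cells, whereas with VPA its log2 fold change of 0.30 (SE 0.14) did not pass.

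Other collagens responded to glucose in 1 comparison or fell. COL16A1 (chr1:32117864-32169920, minus strand), a FACIT collagen, had 45.4, 33.7 and 27.7 CPM in LG, 14.3, 12.7 and 12.2 in HG, 23.3, 26.7 and 24 in LGV and 8.49, 6.54 and 11.1 in HGV. Neither pair of groups overlapped, a fall of 2.68-fold (log2 SE 0.17, FDR 1.26e-05) without VPA and of 2.88-fold (log2 SE 0.17, FDR 3.36e-06) with VPA. COL4A5 rose by 0.44 without VPA, a call lost without HG replicate 1 (FDR 0.0689) or LG replicate 1 (0.0565), and COL4A6, on the other side of their shared start region, had 0.34 (SE 0.15), which did not pass. With VPA, COL26A1 rose by 0.89 (SE 0.22, FDR 0.004). COL6A2 rose by 0.48, lost without HGV replicate 3 (FDR 0.0754), LGV replicate 2 (0.125) or LGV replicate 3 (0.057). COL1A1, with too few reads to be tested without VPA, rose by 0.81, lost without HGV replicate 1 (0.246), HGV replicate 3 (0.0966), LGV replicate 1 (0.0938) or LGV replicate 2 (0.183). COL5A2 fell by 0.74, lost without HGV replicate 1 (0.0624), HGV replicate 2 (0.066), LGV replicate 2 (0.0615) or LGV replicate 3 (0.134).

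Integrin subunits went both ways with glucose. ITGA10 (chr1:145524969-145543868, plus strand), of a collagen receptor of cartilage, had 3.03, 2.69 and 2.91 CPM in LG, 0.888, 1.14 and 1.15 in HG, 2.91, 3.31 and 2.56 in LGV and 1.01, 0.975 and 1.09 in HGV. High glucose libraries were all near 1 CPM and the others near 3 CPM, a fall of 2.66-fold (log2 SE 0.25, FDR 5.19e-04) and 2.89-fold (log2 SE 0.24, FDR 1.06e-04), and ITGA10 did not change with VPA at this threshold. ITGA2 fell by 0.49, a call lost without HG replicate 3 (FDR 0.101), LG replicate 1 (0.0528) or LG replicate 2 (0.0594), and by 1.03 (SE 0.17, FDR 1.65e-04) with VPA. ITGAL rose by 1.51 (SE 0.35, FDR 0.00452) and 1.14 (SE 0.29, FDR 0.00492). The leukocyte marker CD14 was also higher with high glucose, at 3.87 to 4.73 CPM in HG and 1.20 to 2.50 in LG. With VPA it had 0.63 to 1.41 CPM in LGV and 2.59 to 3.34 in HGV. The HGV values lay below those of HG, whereas ITGAL was called higher with VPA in both media. PTPRC and CD3E had no row, and the part of CD14-bearing cells in the change of ITGAL was not tested.

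The beta subunits differed among themselves. ITGB2, the partner of ITGAL, rose by 0.47 without VPA, lost without HG replicate 2 (FDR 0.123), HG replicate 3 (0.0683) or LG replicate 2 (0.0645), and by 0.41 with VPA, lost without HGV replicate 1 (0.0535), HGV replicate 3 (0.0884), LGV replicate 1 (0.0578) or LGV replicate 3 (0.202). ITGB5 fell by 0.38, lost without any 1 of the HG replicates or of LG replicates 1 and 2 (FDR 0.0605 to 0.156), and by 0.54 (SE 0.13, FDR 0.00241) with VPA. With VPA, ITGB1 fell by 0.44, lost without HGV replicate 2 (0.0645) or LGV replicate 3 (0.117), and ITGAV by 0.36, lost without HGV replicate 2 (0.11), LGV replicate 2 (0.109) or LGV replicate 3 (0.107). ITGB7 rose by 1.02 with VPA, lost without LGV replicate 2 (0.0952), although 1881 of its exon bases overlap ZNF740. ITGB3BP, a centromere protein despite its name, rose by 0.72, lost without HG replicate 1 (FDR 0.0686) or LG replicate 1 (0.0784), and by 0.52 with VPA, lost without LGV replicate 2 (0.0589) or LGV replicate 3 (0.0605).

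Laminin chains changed with glucose in 3 cases. LAMA5 (chr20:60883011-60942368, minus strand), the alpha chain of laminin-511, had 201, 161 and 210 CPM in LG, 233, 291 and 250 in HG, 138, 143 and 161 in LGV and 230, 169 and 219 in HGV. It rose by 0.46, a call lost without HG replicate 2 (FDR 0.117) or LG replicate 2 (0.0556), and by 0.47 with VPA, lost without HGV replicate 1 (0.0587), while LAMB1 and LAMC1 passed in neither comparison. LAMA3 fell by 0.79 with overlapping libraries, lost without any 1 of the HG replicates or of LG replicates 1 and 2 (FDR 0.0529 to 0.173), and by 0.78 with VPA, lost without LGV replicate 2 (0.0699). LAMA2, the alpha chain of muscle laminin, had 0.486, 0.674 and 0.791 CPM in LG, 0.412, 0.239 and 0.336 in HG, 1.68, 0.844 and 0.881 in LGV and 0.46, 0.19 and 0.265 in HGV. Most of these values were below 1 CPM, and with VPA it fell 3.82-fold (log2 SE 0.42, FDR 0.00134).

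The adaptors followed no common direction with glucose. LIMS2 rose by 1.29 (SE 0.32, FDR 0.00627) and 1.11 (SE 0.22, FDR 5.58e-04), and its HGV libraries were the highest of the 4 groups. ACTN1 fell by 0.62 (SE 0.13, FDR 0.00221) and by 0.43 with VPA, the latter lost without HGV replicate 3 (FDR 0.0508) or LGV replicate 3 (0.0666). TLN1, which binds beta tails, fell by 0.51 without VPA, lost without HG replicate 1 (FDR 0.0654), HG replicate 3 (0.081) or LG replicate 1 (0.0742). FERMT1 rose by 0.51 without VPA, lost without any 1 of the HG replicates or of LG replicates 1 and 2 (FDR 0.0741 to 0.137). PARVA fell by 0.48 with VPA, lost without HGV replicate 1 (0.0635), HGV replicate 3 (0.115), LGV replicate 2 (0.0735) or LGV replicate 3 (0.0578). VCL rose by 1.01 with VPA (SE 0.12, FDR 5.30e-06) and had 0.26 (SE 0.15) without it, and that call held whichever library was left out.

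Related genes were also set against each other as a share of their summed level per length, which does not depend on how libraries were scaled. The pairs were picked after their values had been seen and were not tested. FERMT1 made up 34.3% ± 9.74 (SD, n = 3) of the kindlins in LG and 47.1% ± 3.29 in HG, but 12.0% ± 5.30 in LGV and 17.8% ± 3.64 in HGV. LIMS2 made up 2.06% ± 0.893 of the PINCH transcripts in LG, 5.39% ± 1.22 in HG, 7.55% ± 1.88 in LGV and 15.3% ± 1.64 in HGV. COL6A2 made up 8.95% ± 3.31 and 6.37% ± 1.25 of COL6A1 and COL6A2 without VPA and 30.1% ± 1.41 and 32.9% ± 2.39 with it. ITGB5 made up 60.7% ± 2.45 and 59.6% ± 5.03 of ITGB5 and ITGB1 without VPA and 42.9% ± 0.845 and 41.5% ± 4.51 with it. The size of a share depends on the exon lengths used. Not divided by length, ITGB1 was higher, with an LG mean of 343 CPM beside 236 for ITGB5. In these 4 pairs the VPA-treated libraries did not overlap the untreated libraries of the same medium. The head to head pair moved less, since COL4A6 made up between 26.8% and 33.1% of COL4A5 and COL4A6 in all 12 libraries. Its mean share was 28.5% in LG and 27.3% in HG, and 31.6% in LGV and 29.6% in HGV.

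**Figure D5:**
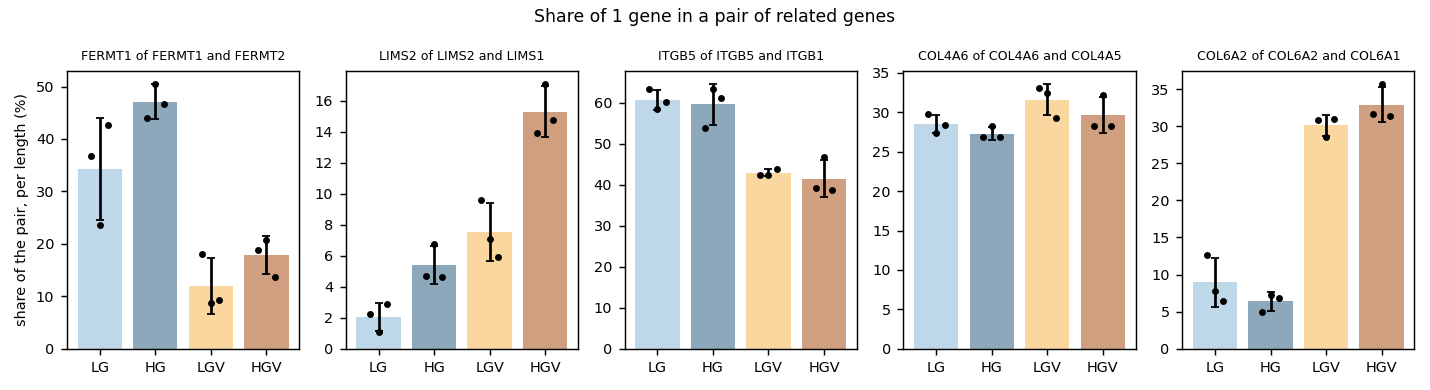
Share of 1 gene in the summed level per length of a pair of related genes, in percent, by group, with bars for the mean of 3 libraries, error bars for the SD and points for libraries. With VPA, FERMT1 and ITGB5 fall and LIMS2 and COL6A2 gain within their pairs, whereas COL4A6 stays between 26.8% and 33.1%.

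Other genes of matrix assembly and adhesion were counted by list, and the lists were drawn up with earlier results of these data known. Their counts are descriptive and stand beside the shares of all genes called. Those were 12.0% higher and 12.7% lower in HG against LG, 21.7% and 19.9% in LGV against LG, 25.8% and 20.2% in HGV against HG, and 21.2% and 19.5% in HGV against LGV. Of 15 enzymes and chaperones tested that fold and modify collagen, 0 were higher and 6 lower in HG against LG (median log2 fold change -0.24), led by MIA3, which exports procollagen from the endoplasmic reticulum (-1.14, FDR 2.86e-05), and the prolyl isomerase PPIB (-1.13). With VPA in LG medium 2 were higher and 7 lower (median -0.34). SERPINH1, the collagen chaperone HSP47, fell by 1.30 and the glycosyltransferase COLGALT2 by 0.85, whereas COLGALT1 rose by 0.43 and the prolyl hydroxylase P4HA2 by 0.41. In HG medium 2 were higher and 5 lower (median 0.01), with SERPINH1 falling by 1.11 and COLGALT2 by 0.85, and P4HA2 rising by 0.54 and COLGALT1 by 0.29. In HGV against LGV 2 were higher, FKBP10 (0.48) and LEPRE1 (0.39), and 5 lower, led by MIA3 (-1.04) and PPIB (-1.0), with a median of -0.08.

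Most of the listed genes that process and crosslink collagen outside the cell were higher with glucose, in a list drawn up with earlier results known. In HG against LG 5 of 8 were higher and 0 lower (median 0.61), led by the procollagen peptidase ADAMTS2 (1.29) and PCOLCE2 (0.91), an enhancer of procollagen cleavage. In HGV against LGV 6 of 9 were higher and 0 lower (median 0.78), led by the lysyl oxidase family member LOXL1 (1.80) and ADAMTS2 (1.55). With VPA the lysyl oxidase family split. In LG medium 3 of 8 were higher and 2 lower (median 0.03), LOXL3 rising by 2.69 and LOXL2 by 0.93, and PCOLCE2 falling by 1.01 and LOXL4 by 0.73. In HG medium 4 of 9 were higher and 2 lower (median 0.23), LOXL1 rising by 3.44 and LOXL3 by 2.77, and PCOLCE2 falling by 0.70 and LOXL4 by 0.43.

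Among 7 basement membrane partners and laminin receptors, 1 was higher and 0 lower in HG against LG (median 0.11), namely HSPG2, the perlecan gene (0.70). In HGV against LGV 3 were higher and 0 lower (median 0.36), led by HSPG2 (1.12) and the laminin receptor BCAM (0.50). With VPA in LG medium NID2 rose by 1.09 while NID1 fell by 0.46 and DAG1 by 0.32 (median -0.28), and in HG medium SPARC rose by 0.70 and NID1 fell by 0.39 (median 0.26). NID1 and NID2 encode nidogens, which join laminin to collagen IV.

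Of 9 other integrin ligands, 5 were higher and 1 lower in HG against LG (median 0.40), with CTGF, a matricellular protein, rising by 1.51, the elastic fibre protein FBLN5 by 0.88 and osteopontin, SPP1, falling by 0.63. In HGV against LGV 4 were higher and 1 lower (median 0.25), with CTGF rising by 1.57, FBLN5 by 0.79 and CYR61 falling by 0.58. With VPA in LG medium 4 were higher and 3 lower (median 0.04), FBLN5 rising by 2.83 and FBN1 by 1.02, and SPP1 falling by 1.47 and CTGF by 0.83. In HG medium 3 were higher and 4 lower (median 0.15), FBLN5 rising by 2.76 and NPNT, a ligand of integrin alpha 8, by 0.79, and CTGF falling by 0.74 and SPP1 by 0.66.

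Other focal adhesion genes, 19 of which were tested, were mixed. In HG against LG 2 were higher and 5 lower (median -0.22), with the kinase PTK2B rising by 1.00 and TLN2 by 0.53, and VASP, which promotes actin elongation, falling by 1.13 and the scaffold BCAR1 by 0.95. In HGV against LGV 4 were higher and 7 lower (median -0.12), PTK2B rising by 1.64 and TLN2 by 0.89, and BCAR1 falling by 1.00 and FERMT3 by 0.99. With VPA in LG medium 4 were higher and 4 lower (median 0.00), ENAH rising by 0.84 and TGFB1I1 by 0.76, and PTK2B falling by 1.28 and KANK1 by 1.19. In HG medium 6 were higher and 4 lower (median 0.22), TNS4 rising by 1.24 and the actin crosslinker FLNA by 0.81, and KANK1 falling by 0.83 and PTK2B by 0.61. These lists were described by their counts, beside medians over all genes between -0.01 and 0.02, and were not tested as sets.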

How the data were processed

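Poly(A) RNA of HepG2 cells was sequenced as 50-base single reads from strand-specific libraries, 3 for each of 4 groups. The authors trimmed the reads, aligned them to GRCh37 with STAR and assigned them to Ensembl genes with featureCounts, and they deposited 1 table of whole-number counts for each gene and library. Every row averaged at least 10 reads over the libraries. Whether reads were counted by strand is not given in the sources used here. The labels name no batch.

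Groups were taken from the labels. Each comparison was fitted to its own 6 libraries with edgeR 4.0.16 in R 4.3.3 (limma 3.58.1), with TMM factors, genes averaging 10 reads or more in those libraries, and the quasi-likelihood F test. The interaction used all 12 libraries. P-values were adjusted over all genes tested (Benjamini-Hochberg), and an FDR of 0.05 or less was called. The standard error (SE) is the absolute log2 fold change divided by the square root of F. On simulated counts with 200 genes changed 2-fold, 97.5% were recovered for HG against LG (15440 genes), with 5.8% of calls false, and 72% for the interaction (16287 genes). The simulation gave all genes the same spread beyond counting error and drew the changed genes from well-read ones. It added no difference in composition between libraries. Its rates therefore do not carry over to scarce or widely spread members.

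The members were taken by a rule on gene names that used no measured value. Both that choice and the lists were made with earlier results of these data known. Genes given in full were, for each comparison, up to 8 with the largest called changes in the same direction in all 9 library pairs and at least 1 CPM in the higher group, the 2 highest of each role, chains and partners that assemble with each other, and the 3 smallest interaction values. The other members are given in brief. Positions and exon lengths come from GENCODE v44lift37, promoter windows from RefSeq. Alternatives were other scalings, filters and tests (DESeq2 1.42.0), a replicate block, 1 fit of all libraries, a stricter FDR and leaving out each library. Tables and figures used Python 3.11.15 with pandas 2.3.3 and matplotlib 3.10.9.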

Additional observations from a re-analysis of the deposited data

How the results depend on the processing

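No log2 fold change of a member reversed its sign past the threshold under any alternative. Of the counts 131 were equal to the main count or within 1.5 times of it, while 15 fell and 3 rose by more than that or across 0. At an FDR of 0.01, HG against LG kept 7 higher and 4 lower, HGV against HG 6 lower, and HGV against LGV 8 higher and 7 lower. With library sizes only, 5 were lower in LGV against LG, 6 in HGV against HG and 7 in HGV against LGV. The likelihood ratio test and DESeq2 each called 1 member for the interaction. Leaving out 1 library at a time gave 9 to 12 higher and 3 to 10 lower in HG against LG, 13 to 21 and 6 to 10 in LGV against LG, 15 to 20 and 7 to 10 in HGV against HG, 10 to 17 and 6 to 14 in HGV against LGV, and 0 to 1 for the interaction. The cause was not tested. Values of single members passed under an alternative only in 94 instances, most often ITGA2 in HGV against HG (7), and COL9A2 in LGV against LG, LAMA5 in HGV against HG and TLN1 in HGV against LGV (6 each). With 3 libraries a group, genes under 1 CPM rest on few reads, and counting error limits them most.

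The labels do not say whether replicate numbers pair the libraries, and correlations over so few libraries cannot settle it. Those of same-numbered deviations ran from -0.201 to 0.295, and not every library correlated best with its own number. With the replicate block 17 members were called in HG against LG (19 without, 17 shared, with ITGB2 at an FDR of 0.0598 and ITGB5 at 0.0696 no longer called), 30 in LGV against LG (28, 28 shared), 30 in HGV against HG (27, 27 shared), 27 in HGV against LGV (25, 25 shared) and 0 for the interaction. Over all genes the block gave 3351 calls in HG against LG (3813 without) and 6971 in LGV against LG (6638 without). It gave 8229 in HGV against HG (7456), 7308 in HGV against LGV (6604) and 13 for the interaction (7).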
